A study of Mus musculus with 4 samples.

Results

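The 32 genes described here encode proteins that copy DNA or that are made as cells enter S phase. They were taken by name from a list covering the replicative helicase, its loading and activation, the clamp and priming polymerase, lagging-strand synthesis, nucleotide supply, histone and chromatin supply, cyclin E, and the fork checkpoint. All 32 were present among the 17252 genes of the deposited table. The rule for membership uses no measured value, but the list was drawn up with earlier results of these data known.

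Drop-seq, which pairs single cells with barcoded beads in droplets and marks every captured transcript with the barcode of its cell and with a random tag (unique molecular identifier, UMI) by which PCR copies are collapsed, was applied to splenocytes of BALB/c mice bearing BCL1, a mouse B cell lymphoma. All mice received 10000 tumor cells on day 0 and were given isotype control, anti-CD20 mAb, anti-CD27 mAb or both mAbs together before harvest on day 13. By the labels anti-CD20 was given on day 4, followed by anti-CD27 from day 5 to day 8, whereas the single-cell methods of the study give an earlier schedule. Each treatment is 1 library, the number of mice behind it is not given in the sources used here, and the columns used as the isotype control are named PBS in the table. Treatment and library therefore cannot be told apart, and no test between treatments was possible.

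DNA replication starts when the MCM helicase, loaded on origins in G1, is activated by cyclin-dependent and Dbf4-dependent kinases. PCNA then holds polymerases on the template while nucleotides and histones are supplied in step. Many of these genes are transcribed under E2F factors once the retinoblastoma protein is phosphorylated. In the spleen, cycling cells include germinal center B cells, activated T cells, and erythroid and myeloid precursors.

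Promoters were compared first, because a shared E2F element is the sequence feature best known for this group. RefSeq promoters (GRCm38.p6, 250 bases before to 50 bases after the start) were matched for 27 of 32 genes. Mcm4, Gins2, Rfc2, Ccne2 and Usp1 had no entry. The E2F-like words TTTGGCGC, TTTCGCGC, TTTCCCGC and TTTGCCGC, searched on both strands, were present in 11 of the 27 (40.7%). They were present in 4.31% of the matched genes of the count table and in 2.61% of all 27025 genes with a promoter, a gene with several starts being counted once if any start held a word. The match nearest the start of each of the 11 genes follows, 5′ to 3′ along the gene, with matched letters in capitals, where the Mcm5 window holds 2 overlapping matches.
Mcm3: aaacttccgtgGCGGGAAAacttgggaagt
Mcm5: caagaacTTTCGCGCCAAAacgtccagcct
Mcm6: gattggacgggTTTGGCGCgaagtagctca
Mcm7: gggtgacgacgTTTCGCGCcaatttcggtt
Cdc6: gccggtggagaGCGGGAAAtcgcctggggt
Pola1: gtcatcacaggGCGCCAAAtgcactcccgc
Lig1: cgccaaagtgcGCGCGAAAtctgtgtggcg
Hells: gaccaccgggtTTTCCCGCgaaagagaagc
Uhrf1: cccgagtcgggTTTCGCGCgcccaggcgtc
Cdca7: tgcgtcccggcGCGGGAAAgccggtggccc
Clspn: accgcgtctggGCGCGAAAgctcgaacttc

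The windows lie at chr1:20820275-20820304 (minus strand, Mcm3), chr8:75109349-75109378 (plus, Mcm5), chr1:128359734-128359763 (minus, Mcm6), chr5:138171849-138171878 (minus, Mcm7), chr11:98908002-98908031 (plus, Cdc6), chrX:93632275-93632304 (minus, Pola1), chr7:13278841-13278870 (plus, Lig1), chr19:38930917-38930946 (plus, Hells), chr17:56304117-56304146 (plus, Uhrf1), chr2:72476137-72476166 (plus, Cdca7) and chr4:126556990-126557019 (plus, Clspn). Measured from the start site to the first base of the match, they begin between 185 bases upstream (Uhrf1) and 26 bases downstream (Lig1). Of 73 other replication genes, 57 had a promoter and 29.8% of these held an E2F-like word, against 3.57% of 28 mitosis genes. The mitosis genes were instead rich in TTTGAA, the core of the CHR element, which 75.0% held. Replication genes held it in 14.8%, matched genes of the count table in 14.7% and all genes with a promoter in 20.2%. CCAAT was in 59.3% of replication gene promoters, 85.7% of mitosis gene promoters, 42.5% of matched genes of the count table and 41.1% of all. A match is a word in a window and not a measured binding site.

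Of 3198 barcodes, 1770 had 300 to 3000 detected genes and were kept as cells, 340 from isotype control, 501 from anti-CD20, 497 from anti-CD27 and 432 from the combination. Library totals ranged from 440710 to 939565 UMIs, and median UMIs per cell from 1031 (isotype control) to 1395.5 (combination). Among kept barcodes 37 lay 1 base from a deeper barcode of the same library and 0 were shared between libraries. The upper limit of 3000 genes removed 51 barcodes, 2, 5, 14 and 30 in the order above, which bears on the results and is described with them.

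The replication genes were present at similar levels in the 3 mAb libraries and lower in isotype control. Summed over the 32 genes, they gave 1145 UMIs in isotype control (2598 counts per 1000000 UMIs, CPM), 3264 in anti-CD20 (3474 CPM), 2970 in anti-CD27 (3268 CPM) and 3045 in the combination (3319 CPM). The log2 ratio of summed CPM was 0.42 for anti-CD20 over isotype control (95% interval 0.32 to 0.52) and 0.33 for anti-CD27 over isotype control (0.23 to 0.43). It was -0.07 for the combination over anti-CD20 (-0.14 to 0.01) and 0.02 for the combination over anti-CD27 (-0.05 to 0.10). These intervals cover counting error only and treat UMIs as independent, so they are too narrow where many UMIs come from 1 cell. With the 51 barcodes above the gene limit included, the combination stood above anti-CD20 by 0.41 (0.35 to 0.46) and above anti-CD27 by 0.33 (0.27 to 0.38).

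Few single genes differed 2-fold between whole libraries. In the combination over anti-CD20, 0 of 32 were at least 2-fold higher (6.39% of 10365 genes with at least 10 UMIs were) and 0 were 2-fold lower (4.62%). In anti-CD27 over isotype control Tyms and Uhrf1, 2 of 32, were higher (4.97% of genes) and 0 lower (3.58%), with a median log2 ratio of 0.44 against -0.09 over all genes. In anti-CD20 over isotype control 4 were higher, Mcm5, Gins2, Uhrf1 and Ccne2 (2.16% of genes), and 0 were lower (1.47%), with a median of 0.46 against -0.05. In the combination over anti-CD27 0 were higher (1.44%) and 0 lower (1.76%). Ratios for these counts used a pseudocount of 10 CPM.

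**Figure D1:**
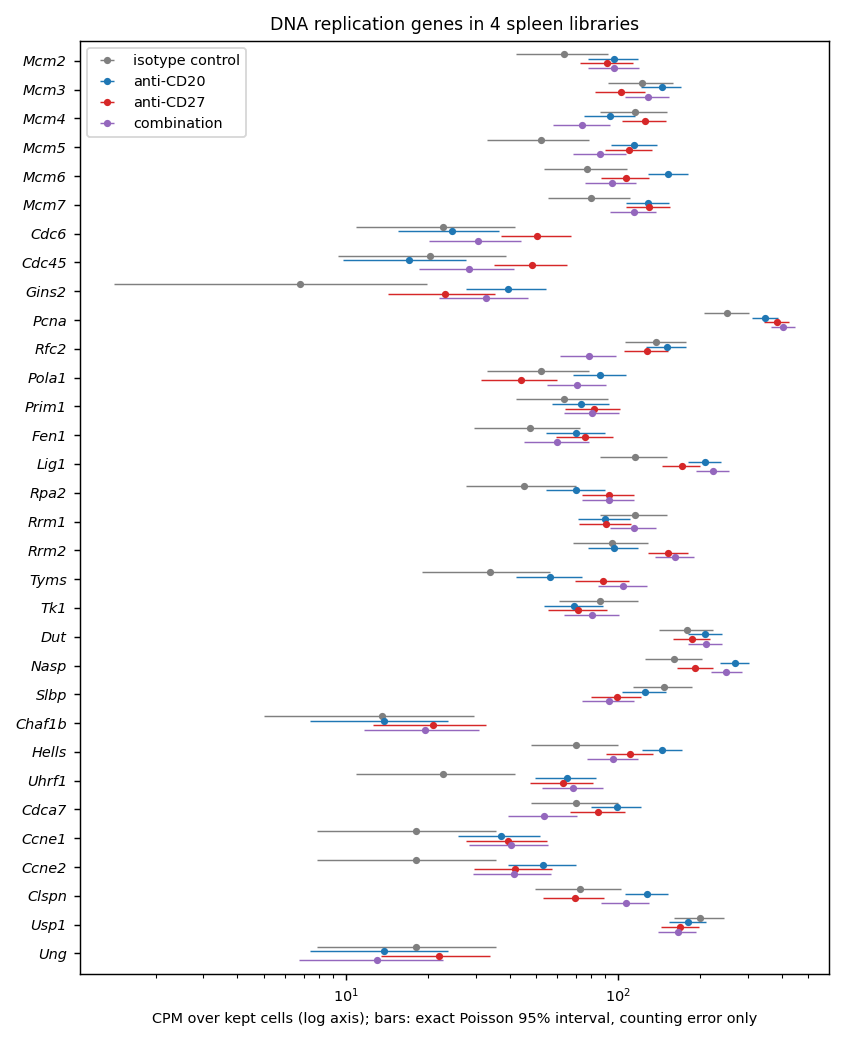
CPM of each of the 32 replication genes (rows, in order of role) in the 4 libraries, on a log axis, with exact Poisson 95% intervals. Pcna is the most abundant gene in every library, and isotype control (grey) is lowest for many genes, among them Mcm5, Gins2, Tyms, Uhrf1 and Ccne2.

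The MCM helicase unwinds the template ahead of the fork as a ring of Mcm2 to Mcm7, and its 6 genes gave 511 CPM in isotype control, 732 in anti-CD20, 666 in anti-CD27 and 595 in the combination. Mcm5 had 52.2, 114.9, 110.0 and 86.1 CPM in that order, and the intervals of isotype control and both single mAbs did not overlap. Mcm6 had 77.1, 153.3, 106.7 and 94.8 CPM and was higher in anti-CD20 than in the combination (log2 ratio -0.69 for the combination over anti-CD20). Mcm2 (63.5 to 97.0 CPM), Mcm3 (102.3 to 144.7), Mcm4 (74.1 to 125.4) and Mcm7 (79.4 to 129.8) varied less than 2-fold among libraries.

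Helicase loading and activation was represented by Cdc6, which loads MCM, and by Cdc45 and Gins2, which complete the active helicase. Cdc6 was at 22.7, 24.5, 50.6 and 30.5 CPM and Cdc45 at 20.4, 17.0, 48.4 and 28.3 CPM, so both were highest in anti-CD27. Gins2 had 3 UMIs in isotype control and 37, 21 and 30 in the other libraries.

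Pcna, the sliding clamp, had 251.9, 348.0, 384.0 and 405.5 CPM, with isotype control below the other 3 libraries. Rfc2, a subunit of the clamp loader, went the other way between the combination (78.5 CPM) and anti-CD20 (151.1 CPM). Pola1 (44.0 to 86.2 CPM) and Prim1 (63.5 to 81.4 CPM) form part of the polymerase alpha-primase that starts each strand.

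On the lagging strand, Lig1, the ligase that joins Okazaki fragments, had 115.7, 208.6, 171.6 and 223.4 CPM. Fen1, the flap endonuclease, ranged from 47.7 to 75.9 CPM. Rpa2, a subunit of the single-strand binding protein, was at 45.4, 70.2, 92.4 and 92.6 CPM.

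Nucleotide supply genes summed to 511, 522, 590 and 672 CPM and had a log2 ratio of 0.37 for the combination over anti-CD20. Tyms, thymidylate synthase, had 34.0, 56.4, 88.0 and 104.6 CPM, and its log2 ratio for the combination over anti-CD20 was 0.89. Rrm2, the regulated subunit of ribonucleotide reductase, had 95.3, 96.9, 152.9 and 162.4 CPM (0.75). Rrm1, the partner subunit (89.4 to 115.7 CPM), Tk1, thymidine kinase (69.2 to 86.2), and Dut, which removes dUTP (179.3 to 210.4), differed little.

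Histone and chromatin genes were highest in anti-CD20 (718 CPM) and lower in isotype control (486), anti-CD27 (571) and the combination (581). Nasp, a histone chaperone, had 161.1, 269.3, 192.5 and 250.7 CPM. Hells, a chromatin remodeler, had 70.3, 145.8, 111.1 and 95.9 CPM, and Cdca7, its partner, 70.3, 99.0, 84.7 and 53.4 CPM. Both had intervals below 0 for the combination over anti-CD20 (log2 ratios -0.60 and -0.89). Slbp, which binds histone mRNA, was highest in isotype control (147.5 CPM) and lowest in the combination (92.6 CPM). Uhrf1, which maintains DNA methylation, had 22.7, 64.9, 62.7 and 68.7 CPM, and Chaf1b, of the histone chaperone CAF-1, 13.6 to 20.9 CPM.

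The cyclin E genes Ccne1 and Ccne2, which drive entry into S phase, were at 18.2 CPM each in isotype control. Ccne1 was at 37.3 to 40.3 CPM and Ccne2 at 41.4 to 53.2 CPM in the mAb libraries. Clspn, which carries the fork checkpoint signal, had 72.6, 127.7, 69.3 and 106.8 CPM. Usp1, a deubiquitinase acting on PCNA, ranged from 165.7 to 199.7 CPM and Ung, which excises uracil, from 13.1 to 22.0 CPM.

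A library total cannot tell fewer cells of a type from less RNA per cell, so the same UMIs were divided by cell class. The similar library totals were carried by different cells. Clusters were made without these or other cell cycle genes and were named from marker genes, by a rule set after the clusters had been seen in earlier work. Germinal center B-like cells (leading genes Rgs13 and Mybl1) held 49.2% of replication gene UMIs in isotype control and 62.9% in anti-CD20. They had 0 of 497 and 0 of 432 cells in anti-CD27 and the combination. In those libraries effector CD8 T-like cells (Ccl4, Nkg7, Gzmb) held 36.2% and 29.5% and erythroid-like cells (Car2, Hba-a1) 28.1% and 37.9%. In isotype control and anti-CD20 the same classes held 1.66% and 0.80% (effector CD8 T-like) and 3.14% and 5.30% (erythroid-like). B-like cells, 3 in the combination, held 26.2%, 14.8%, 17.4% and 0.10%.

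**Figure D2:**
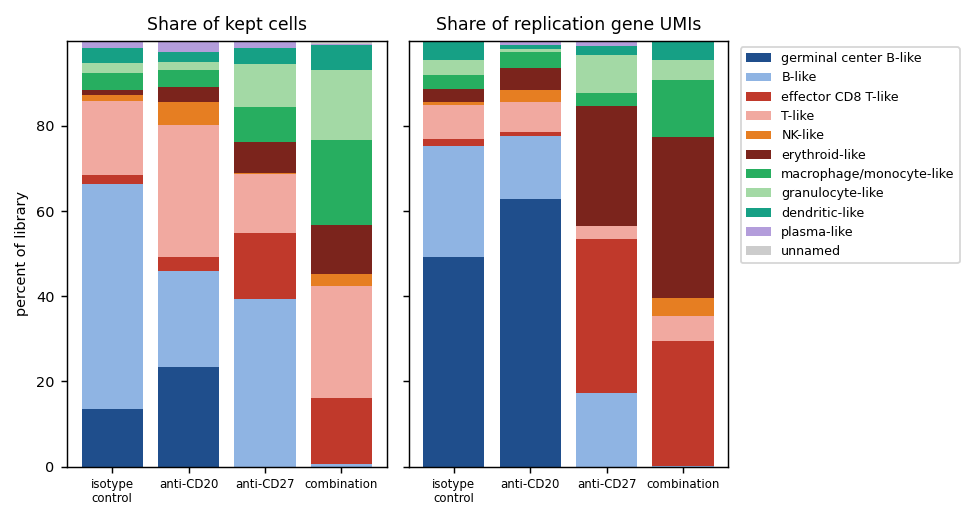
Share of kept cells (left) and of replication gene UMIs (right) by cell class in each library, in percent. Germinal center B-like cells (dark blue) make up 13.5% and 23.4% of cells in isotype control and anti-CD20 but 49.2% and 62.9% of the UMIs, and effector CD8 T-like and erythroid-like cells (reds) take most of the UMIs in the other libraries.

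Pooled over libraries, 3 classes had the highest levels, although the libraries contributed to them very unequally. Summed CPM was 7062 (95% interval 6794 to 7338) in 163 germinal center B-like cells, 6891 (6606 to 7185) in 108 erythroid-like cells and 5367 (5135 to 5606) in the 168 cells of the effector CD8 T-like class. It was 3473 in 45 NK-like, 1979 in 69 dendritic-like, 1868 in 491 B-like, 1700 in 160 macrophage/monocyte-like, 1562 in 138 granulocyte-like, 1302 in 397 T-like and 740 in 25 plasma-like cells. The germinal center B-like and erythroid-like intervals overlap. Within granulocyte-like cells the cluster led by Camp, Ngp and Ltf, genes of immature neutrophils, had 2093 CPM (1904 to 2296) and that led by Retnlg and Cxcr2, genes of mature neutrophils, 308 CPM (205 to 446). These clusters also differed in median UMIs per cell (3077 and 956) and in cells with a UMI of Cd3d, Cd3e or Cd3g (40.7% and 15.2%). The part of depth or of mixed transcripts in this contrast was not tested. Genes of the mitosis list were at 10141 CPM in germinal center B-like, 8545 in erythroid-like, 5617 in effector CD8 T-like and 583 in T-like cells. The 26 dendritic-like cells of the combination departed from this parallel, with 7219 CPM of mitosis genes and 2394 of replication genes. The effector CD8 T-like class of that library had 7113 and 5497. Other classes departed too, since granulocyte-like cells of the combination had 2283 and 925 CPM. B-like cells of isotype control went the other way, with 590 and 1501 CPM.

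Comparisons within 1 library share its preparation, though not the UMIs per cell. Germinal center B-like cells exceeded B-like cells 4.65-fold in isotype control (4.03 to 5.36) and 3.46-fold in anti-CD20 (3.13 to 3.83). Effector CD8 T-like cells exceeded T-like cells 4.52-fold in anti-CD27 (3.63 to 5.69) and 3.98-fold in the combination (3.39 to 4.71), whereas in anti-CD20 the ratio was 1.05 (0.67 to 1.58) with 16 effector cells. In anti-CD20 these 16 cells (1283 CPM) also lay below NK-like cells (2776 CPM, ratio 0.46, 0.29 to 0.72). In the combination the effector class (5497 CPM) and 12 NK-like cells (4727 CPM) had a ratio of 1.16 (0.96 to 1.41), which includes 1. Median UMIs per cell were also higher in the effector class than in T-like cells, in anti-CD27 (1649.5 against 838) and in the combination (1811 against 921). The part of depth in these CPM ratios was not tested. When each cell was thinned to 400 UMIs, in 100 random draws, the mean share of cells with at least 3 of the genes was 29.25% in the effector class and 1.29% in T-like cells of anti-CD27. In the combination the shares were 23.0% and 2.54%.

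**Figure D3:**
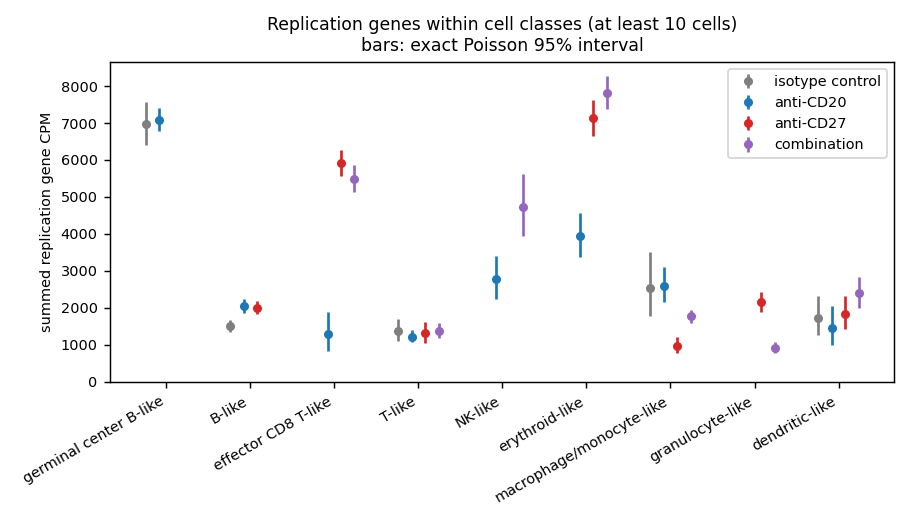
Summed replication gene CPM in each cell class and library with at least 10 cells, with exact Poisson 95% intervals. Effector CD8 T-like and erythroid-like cells sit higher in anti-CD27 and the combination than in anti-CD20, while T-like cells of the main clustering lie between 1223 and 1380 CPM in all 4 libraries.

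Effector CD8 T-like cells numbered 7, 16, 78 and 67 in isotype control, anti-CD20, anti-CD27 and the combination. Of these 168 cells 88.7% had a UMI of Cd3d, Cd3e or Cd3g but only 53.0% one of Cd8a or Cd8b1, so the class may hold other T cells. Summed CPM was 1283 (26 UMIs) in anti-CD20, 5909 (1074 UMIs) in anti-CD27 and 5497 (898 UMIs) in the combination. The log2 ratio for the combination over anti-CD20 was 2.10 (1.54 to 2.72), and for the combination over anti-CD27 -0.10 (-0.23 to 0.02). Isotype control, with 19 UMIs in 7 cells, had too few cells for a ratio. Pcna had 3 UMIs in the anti-CD20 cells (148 CPM), 137 in anti-CD27 (754 CPM) and 111 in the combination (679 CPM). Lig1 had 0 UMIs in anti-CD20 and 54 and 59 in the others. A count of 0 allows up to 3 UMIs, which is 148 CPM in the anti-CD20 cells, and Lig1 had 361 CPM in the combination. Dut, at 197, 413 and 429 CPM, Hells, at 98.7, 319 and 318 CPM, and Nasp, at 247, 363 and 257 CPM, had intervals for the combination over anti-CD20 that included 0, on 4, 2 and 5 UMIs in the anti-CD20 cells. Of 26 genes with at least 10 UMIs, 20 were at least 2-fold higher in the combination than in anti-CD20 (25.5% of 3562 genes) and 0 were 2-fold lower (12.7%). A gene that reached 10 UMIs through the combination alone had to differ, so these counts are a description. Of the 28 mitosis genes measured, 24 were 2-fold higher.

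Erythroid-like cells numbered 4, 18, 36 and 50. Summed CPM was 3935 in anti-CD20, 7135 in anti-CD27 and 7817 in the combination, and the combination exceeded anti-CD20 by 0.99 on the log2 scale (0.76 to 1.23). Lig1 had 182, 487 and 629 CPM in these libraries, Rrm2 114, 333 and 399, and Nasp 182, 325 and 541, with anti-CD20 lowest. Pcna (523, 769 and 839 CPM) differed less, and Dut (478, 504 and 521 CPM) not beyond its intervals. Of 29 genes measured, 12 were at least 2-fold higher in the combination (25.3% of 3612 genes) and 0 lower (9.5%). Here too a gene could reach 10 UMIs through the combination alone, which had more cells, so these counts are a description. The size of the summed log2 ratio depended on the cells counted and the measure. It was 0.39 (0.24 to 0.54) with no upper gene limit and 0.60 as a mean over cells.

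Germinal center B-like cells, 46 in isotype control and 117 in anti-CD20, held the genes at 6971 and 7087 CPM (log2 ratio 0.02, -0.11 to 0.16). Of 31 genes measured 2 were at least 2-fold higher in anti-CD20 (8.72% of 5582 genes) and 0 lower (6.57%). These were Gins2 and Ccne1, each with 1 UMI in isotype control. Pcna was at 619 and 687 CPM, Nasp at 421 and 535, Lig1 at 433 and 493, and Dut at 520 and 390. Usp1 was the exception among the 5 most abundant, with 557 and 321 CPM (log2 ratio -0.80, -1.32 to -0.25).

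In B-like cells summed CPM was 1501 in isotype control, 2049 in anti-CD20 and 2002 in anti-CD27. Log2 ratios over isotype control were 0.45 (0.24 to 0.66) and 0.42 (0.21 to 0.63). When classes were instead taken from each cell's own markers, the second became -0.43. In the main clustering T-like cells did not differ beyond their intervals (0.17, -0.12 to 0.46, for the combination over anti-CD20, and -0.07, -0.52 to 0.37, for anti-CD27 over isotype control). With the same change of classes these ratios were 1.56 and 1.62. In all, 4 of 13 other settings took the first ratio outside its interval and 7 of 13 the second, so the lack of a difference depended on the processing. Macrophage/monocyte-like cells were lower in the combination than in anti-CD20 (1767 and 2595 CPM, -0.55, -0.85 to -0.25), with 86 and 20 cells. The class joins a cluster led by Cxcl9 and one led by C1qb, with 72 and 14 cells in the combination and 10 and 10 in anti-CD20. Averaged over cells rather than summed over UMIs, the ratio was 0.29, so its direction depended on the measure.

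The 3 classes with the highest pooled levels differed in the make-up of these UMIs. Germinal center B-like cells came from isotype control and anti-CD20 and nearly all effector CD8 T-like UMIs from anti-CD27 and the combination, so class and treatment cannot be told apart in these pooled shares. As a share of each class's replication gene UMIs, Hells made up 4.17% in germinal center B-like, 5.55% in effector CD8 T-like and 1.18% in erythroid-like cells. Rpa2 made up 4.61% in effector CD8 T-like cells against 1.22% and 1.59% in germinal center B-like and erythroid-like cells, and its share in the effector class was 3.35% in anti-CD27 and 5.79% in the combination. Tyms made up 1.18% in germinal center B-like cells against 2.83% (effector CD8 T-like) and 3.87% (erythroid-like). Ccne1 made up 1.91% in erythroid-like against 0.46% in germinal center B-like cells, and Cdc6 was at 138 and 51.3 CPM in these classes. By CPM, 15 of 32 genes were highest in erythroid-like, 12 in germinal center B-like and 4 in effector CD8 T-like cells, and Ung was highest in NK-like cells on 3 UMIs, with an interval that overlapped those of other classes.

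**Figure D4:**
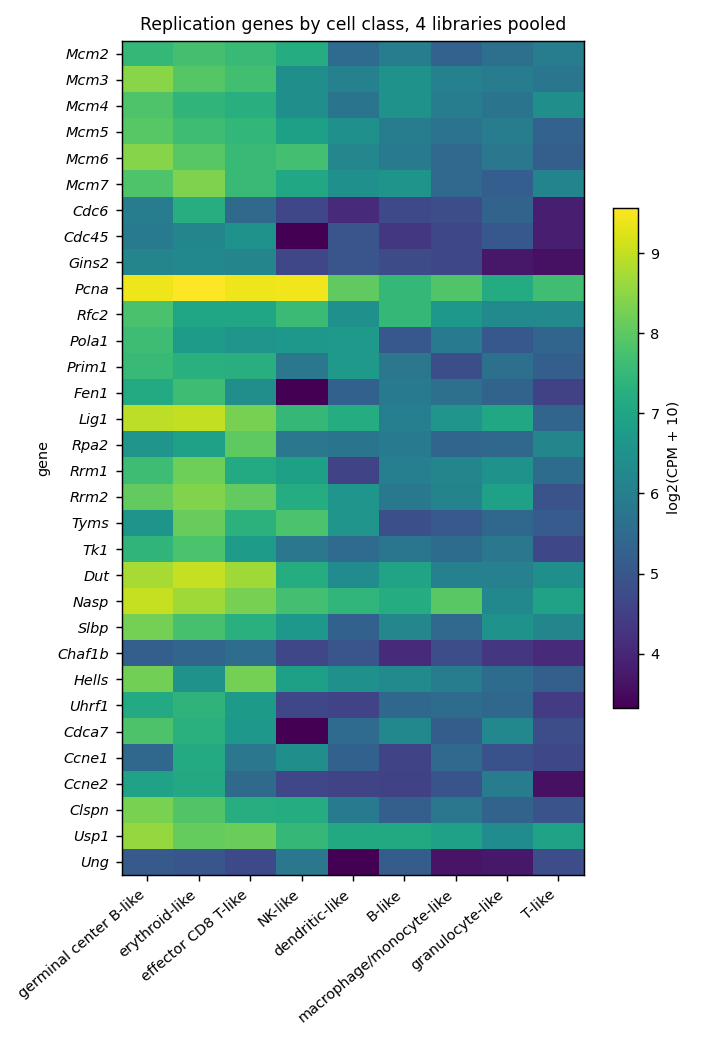
Level of each replication gene (rows) in 9 cell classes, as log2(CPM + 10) pooled over the 4 libraries. Germinal center B-like, erythroid-like and effector CD8 T-like cells (left) are brighter than B-like and T-like cells for most genes, Pcna is also bright in NK-like cells, and Hells is darker in erythroid-like cells.

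The UMIs were concentrated in few cells, and the 92 richest of 1770 cells (5.20%) held at least as many of the 10424 UMIs as all other cells together. After each cell was thinned to 400 UMIs, in 1 random draw 28 of 335 isotype control cells had at least 3 of the genes (8.36%, Clopper-Pearson 95% interval 5.63 to 11.9). The shares were 12.3% in anti-CD20 (9.54 to 15.5), 10.1% in anti-CD27 (7.62 to 13.2) and 11.4% in the combination (8.57 to 14.8). A single draw proved to be noisy, so 100 draws were made after these values had been seen. Their mean shares were 7.11% (range over draws 4.48 to 9.55), 12.3% (10.1 to 14.1), 9.47% (6.90 to 11.2) and 12.3% (10.5 to 14.9). The draws thin the same cells each time and measure thinning error only. Counting error over cells gave intervals around these means of 4.64 to 10.5, 9.54 to 15.5, 7.09 to 12.5 and 9.39 to 15.8%, which overlap between all libraries. With at least 5 of the genes required, isotype control (3.58%) and anti-CD27 (3.45%) were in the other order. By class the mean share was 41.3% in erythroid-like, 36.4% in germinal center B-like and 23.1% in effector CD8 T-like cells. At the same depth it was 3.33% in B-like, 1.66% in T-like and 0.36% in plasma-like cells. Over all draws 76.2% of cells with at least 3 of the genes also had a UMI of the mitosis list, against 22.4% of the rest.

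The 51 barcodes above the gene limit held 6287 replication gene UMIs, against 10424 in the 1770 kept cells, at 6929 CPM in isotype control, 8273 in anti-CD20, 7537 in anti-CD27 and 8521 in the combination. All 51 held at least 3 of the genes. That count was made without thinning, at a median of 13793 UMIs per barcode against 1251.5 in kept cells, and depends on this depth. Clustered with the rest, 27 fell in erythroid-like, 13 in effector CD8 T-like and 3 in germinal center B-like cells, and 18 of the erythroid-like ones came from the combination. The remaining 8 fell in a macrophage/monocyte-like class that did not pass the marker check there (7) and in dendritic-like cells (1). Whether each was 1 cell was not tested.

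**Figure D5:**
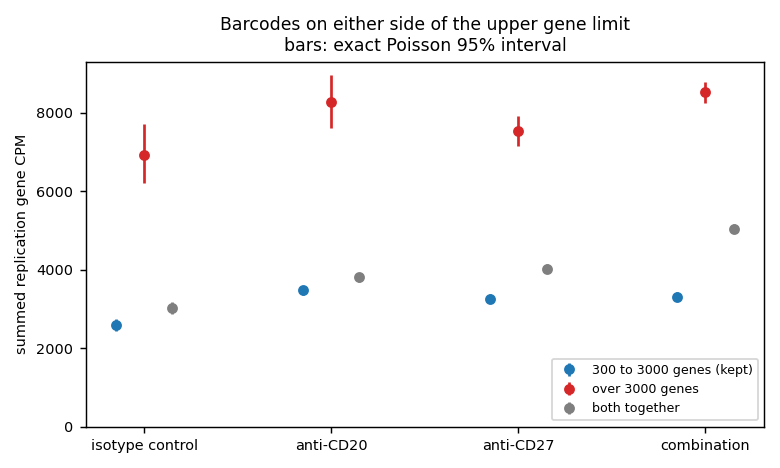
Summed replication gene CPM in kept cells, in barcodes with over 3000 genes, and in both together, by library, with exact Poisson 95% intervals. The 30 barcodes over the limit in the combination lift that library from 3319 to 5048 CPM, the largest of the 4 shifts.

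Other replication genes, from lists that do not include the 32, were examined beside them. Summed, the 73 gave 6185, 6725, 6053 and 6146 CPM in isotype control, anti-CD20, anti-CD27 and the combination. Samhd1, a dNTP hydrolase highest in granulocyte-like cells among the classes compared (1585 CPM), gave 481, 330, 770 and 1016 CPM of these sums. The similar sums therefore depend in part on this gene. In the combination over anti-CD20, 1 of 73 was at least 2-fold higher (Samhd1, 330 and 1016 CPM in anti-CD20 and the combination) and 4 lower, where 6.39% and 4.62% of all genes were. Of these 4 Pold4, a polymerase delta subunit, is among the most abundant genes of its list (261 and 44.7 CPM). In anti-CD27 over isotype control 2 of 71 were higher and 2 lower, against 4.97% and 3.58% of all genes. Mki67, a marker of cycling cells, had 513, 749, 486 and 723 CPM and Top2a, topoisomerase II, 252, 556, 436 and 696 CPM, while Cdkn1b, a CDK inhibitor, had 261, 134, 118 and 162 CPM. By class, Cdkn1b was at 338 CPM in T-like and 5.40 CPM in germinal center B-like cells, opposite to the replication genes. Klf2, a transcription factor of resting lymphocytes, was at 536 CPM in T-like and 35.1 CPM in germinal center B-like cells. E2f1 gave 68 UMIs in all.

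Across 20 groups of class and library with at least 20 cells, the genes whose log2 CPM most resembled the summed replication genes were Tuba1b (Pearson r = 0.90), Anp32b, Spc24, Ran, Ccna2, Rfc4, Smc2, Birc5, Ezh2, Cenpk, Ckap2l, Cks2, Snrpd1, Asf1b and Rnaseh2b (0.85), among 5355 genes with at least 100 UMIs. Of these 15, 7 were in the lists of other replication and cell cycle genes. The lowest, named after their values were seen, were Slfn8 (-0.88), Slfn2, 9930111J21Rik2, Tsc22d3 and Txnip. Among the 32 themselves r with their own sum ran from 0.50 (Rfc2) to 0.93 (Mcm5) for those with at least 100 UMIs. The groups share libraries and each gene is part of the sum, so these values are descriptions.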

How the data were processed

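Splenocytes from 4 treatment groups were profiled by Drop-seq, 1 library each. The authors aligned reads to mm10 with STAR 2.5.0a and deposited raw UMI counts per gene and barcode made with Dropseq-tools. Here, barcodes were retained if 300 to 3000 genes were detected, the limits used by the study. Each cell was scaled to 10000 counts, and 2000 variable genes without cell cycle genes, 30 principal components and 15 neighbours were used for Leiden clustering (leidenalg 0.10.2, resolution 1, seed 0). Clusters were named from at least 3 markers among their top 30 genes. NK was not allowed where 30% or more of cells had a Cd3 UMI, nor effector CD8 T where under 20% had one of Cd8a or Cd8b1. A T cluster with more effector CD8 T than T markers among its top 10 genes was named effector CD8 T. UMIs were summed per library or class and divided by total UMIs (CPM), with exact Poisson intervals and exact conditional intervals for ratios, computed with scipy 1.17.1 and covering counting error only. PCR copies were collapsed by UMI. Scrublet called 16 of 1770 cells (0.904%) as doublets, and these were kept. TMM factors came from edgeR 4.0.16 in R 4.3.3. The ratios and intervals of whole libraries were tested on simulated Poisson counts, the assumption on which the intervals rest. Thinning was checked for the UMIs it keeps, and clustering and class naming were not tested on simulated data. Genes with 10 or more UMIs over both libraries counted as measured. Named genes were all 32, the 5 of them with the most UMIs in a class, the 5 with the most UMIs of each other list, Mki67, Top2a, Ccnb1, Cdkn1b and E2f1, and the 15 genes most like the sum of the 32. Genes, lists and class rules were chosen with earlier results of these data known. No comparison was tested, because each treatment is 1 library.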

Additional observations from a re-analysis of the deposited data

Results flagged for a closer look

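Barcodes with more than 3000 detected genes, which the comparisons leave out, held the replication genes at 6929 CPM in isotype control (2 barcodes), 8273 in anti-CD20 (5), 7537 in anti-CD27 (14) and 8521 in the combination (30). These levels were above those of kept cells of every library, which ranged from 2598 to 3474 CPM.

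The ratio of the combination over anti-CD20 went in opposite directions in different classes. Its log2 value was 2.10 in effector CD8 T-like cells (16 cells in anti-CD20) and 0.99 in erythroid-like cells (18 cells), but -0.55 in macrophage/monocyte-like cells (20 cells). With 1 library per treatment the difference between classes was not tested, and the last value became 0.29 when each cell's share of UMIs was averaged instead.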

How the results depend on the processing

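Of 194 values recomputed for 24 results, 125 stayed within the main value's interval or 1.5 times its count. Of 116 recomputed ratios 17 changed sign, 3 of them from a ratio whose interval excluded 0 and 14 from one whose interval included it, among them combination over anti-CD20 in whole libraries and anti-CD27 over isotype control in T-like cells. No paired analysis was possible because the labels give 1 library per treatment and no shared replicate numbers. The cause of these shifts was not tested. For whole libraries, no upper gene limit gave log2 ratios of 0.41 (combination over anti-CD20) and 0.33 (combination over anti-CD27) and 1 gene 2-fold higher in the former. TMM gave 0.017 for combination over anti-CD20, and 0.50 with 8 genes for anti-CD27 over isotype control, a common shift that also took the share of all genes 2-fold higher from 4.97 to 6.42%. The mean over cells gave 0.18 with 0 genes for that comparison and 0.22 for combination over anti-CD27. Without the 5 richest cells anti-CD27 over isotype control was 0.43 with 4 genes and anti-CD20 over isotype control 0.57. For anti-CD27 over isotype control the count was also 5 with at least 500 genes per barcode and 0 with a pseudocount of 50 CPM.

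Within classes, combination over anti-CD20 in effector CD8 T-like cells was 3.04 without the 5 richest cells. In erythroid-like cells it was 0.39 (no upper limit), 0.60 (mean over cells), 2.03 (without 5 cells) and 0.48 (own markers, meaning classes from each cell's markers). Leaving out 5 cells removes a larger part of the smaller library (5 of 20 against 5 of 86 macrophage/monocyte-like cells). In macrophage/monocyte-like cells it was 0.29 (mean over cells), 1.47 (without 5 cells), -0.017 (cell cycle genes allowed in clustering) and -0.20 (own markers). In T-like cells it was 0.48 (resolution 0.5), 0.51 (resolution 2), 0.53 (1000 variable genes) and 1.56 (own markers). Anti-CD27 over isotype control in T-like cells was 0.56 (no upper limit), 0.85 (500 genes), 0.60 (no doublets), 0.71 (resolution 0.5), 0.74 (resolution 2), 1.11 (1000 variable genes) and 1.62 (own markers). In B-like cells it was 0.19 (mean over cells), 0.11 (cell cycle genes) and -0.43 (own markers), and anti-CD20 over isotype control was 0.17 (1000 variable genes) and 0.71 (own markers). TMM moved ratios by 0.60 in effector CD8 T-like cells, 0.29 in macrophage/monocyte-like, 0.20 in erythroid-like and 0.17 for anti-CD27 over isotype control in whole libraries.

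Summed CPM with own markers was 7649 in erythroid-like, 6040 in effector CD8 T-like, 3573 in B-like, 2987 in T-like, 1918 in granulocyte-like and 1471 in macrophage/monocyte-like cells. Resolution 0.5 and 2 gave 5756 and 5825 in effector CD8 T-like and 1547 and 1541 in T-like cells. With 1000 variable genes it was 1749 in B-like and 1718 in T-like cells, and with cell cycle genes 1482 in B-like cells. Shares of cells with at least 3 of the genes, in isotype control, anti-CD20, anti-CD27 and the combination, were 18.1, 21.5, 19.9 and 20.7% at 800 UMIs and 18.8, 33.9, 27.2 and 31.9% without thinning. With at least 2 genes they were 14.0, 20.6, 15.8 and 19.6%, and with at least 5 genes 3.58, 5.24, 3.45 and 4.90%. The mean over 100 draws with no upper limit, chosen after seeing the data, was 15.3% in the combination. Too few cells (under 10 in a library) left no value for anti-CD27 over isotype control in effector CD8 T-like and erythroid-like cells or for combination over anti-CD20 in granulocyte-like cells.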

Other observations

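Barcodes with fewer than 300 genes held the replication genes at 826 CPM in isotype control, 540 in anti-CD20, 1219 in anti-CD27 and 1248 in the combination. NK-like cells had 2776 CPM in anti-CD20 (27 cells) and 4727 in the combination (12 cells), and dendritic-like cells 1458 (12 cells) and 2394 (26 cells).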
